A study of Mus musculus with 59 samples.

Results

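The serotonin receptor genes described here were 10 named members of the Htr family: Htr1a, Htr1b, Htr1d, Htr1f, Htr2a, Htr2c, Htr3a, Htr4, Htr5a and Htr7. They were chosen by name, as 10 of the 51456 genes of the deposited table and 10 of 14 family genes looked up in it, and all 10 were among the 16839 genes with a mean of at least 10 normalized counts, which were tested. Their levels were read from 59 RNA sequencing libraries of prefrontal cortex, taken from mice of the C57BL/6J strain on postnatal day 25. The pups had taken in fluoxetine or lithium, or were vehicle controls, through the milk of their dams from postnatal day 3 to day 24. The labels name the allele Chd8-S62X, carried by heterozygous (HT) mice and set against wild-type (WT) mice, and both sexes were sampled. The groups were HT fluoxetine (4 female and 5 male libraries), HT lithium, HT vehicle, WT fluoxetine, WT lithium and WT vehicle (5 female and 5 male libraries each).

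Serotonin reaches the cortex from neurons of the raphe nuclei and acts there on receptors of several families. The receptors of the Htr1 and Htr5 families act mainly through inhibitory G proteins, those of the Htr2 family through Gq and phospholipase C, and Htr4 and Htr7 through Gs and adenylyl cyclase, whereas Htr3a encodes a subunit of a cation channel that serotonin opens. Fluoxetine blocks the transporter that returns serotonin to the neuron that released it, so it prolongs the action of serotonin on these receptors. The comparison of fluoxetine with vehicle within each genotype asks whether early exposure was followed by a different amount of receptor mRNA.

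Normalized counts summed to 30.34 to 33.68 M per library, at an estimated depth of 25.77 to 36.88 M reads. Chd8, the gene named in the labels, was higher in the HT-labelled mice: the lowest HT-labelled library held 5115 normalized counts of it and the highest WT-labelled library 4229. That is not the direction of a loss of Chd8 transcript, so HT and WT stand below for the genotypes as labelled. Marker genes of neighbouring tissue differed in level from library to library. Averaged on the log2 scale, 5 olfactory bulb markers ran from 4.28 to 9.81, and 8 libraries stood over 5 robust SD above the median of 13 striatal markers (HT fluoxetine female 1 and 2, HT lithium female 5, HT lithium male 1 and 4, HT vehicle female 3, WT lithium male 2 and WT vehicle female 5). Markers of excitatory cortical neurons were high in every library (mean log2 level 11.02 to 11.73).

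Per kilobase of exon, Htr2a was the most abundant receptor mRNA. In WT vehicle libraries it averaged 373.1 ± 41.01 normalized counts per kb (SD, n = 10, as for the other values of this paragraph), above the range of every other receptor. It encodes a Gq-coupled receptor of cortical pyramidal neurons. Htr2c (177.3 ± 41.8 per kb), Htr1a (162.5 ± 17.68 per kb) and Htr5a (149.9 ± 11.85 per kb) followed, and their ranges over libraries overlapped. Htr3a had 102.4 ± 6.446 per kb, with a range of 93.66 to 116.1 per kb that lay below that of Htr5a (131.8 to 172.4 per kb). Htr1b (79.82 ± 10.91 per kb), Htr7 (56.97 ± 4.597 per kb), Htr1f (43.72 ± 6.916 per kb) and Htr1d (19.77 ± 14.06 per kb) came next, and each overlapped its neighbour in this order. Htr4 was the lowest at 6.566 ± 1.943 per kb, with a range that overlapped that of Htr1d.

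**Figure D1:**
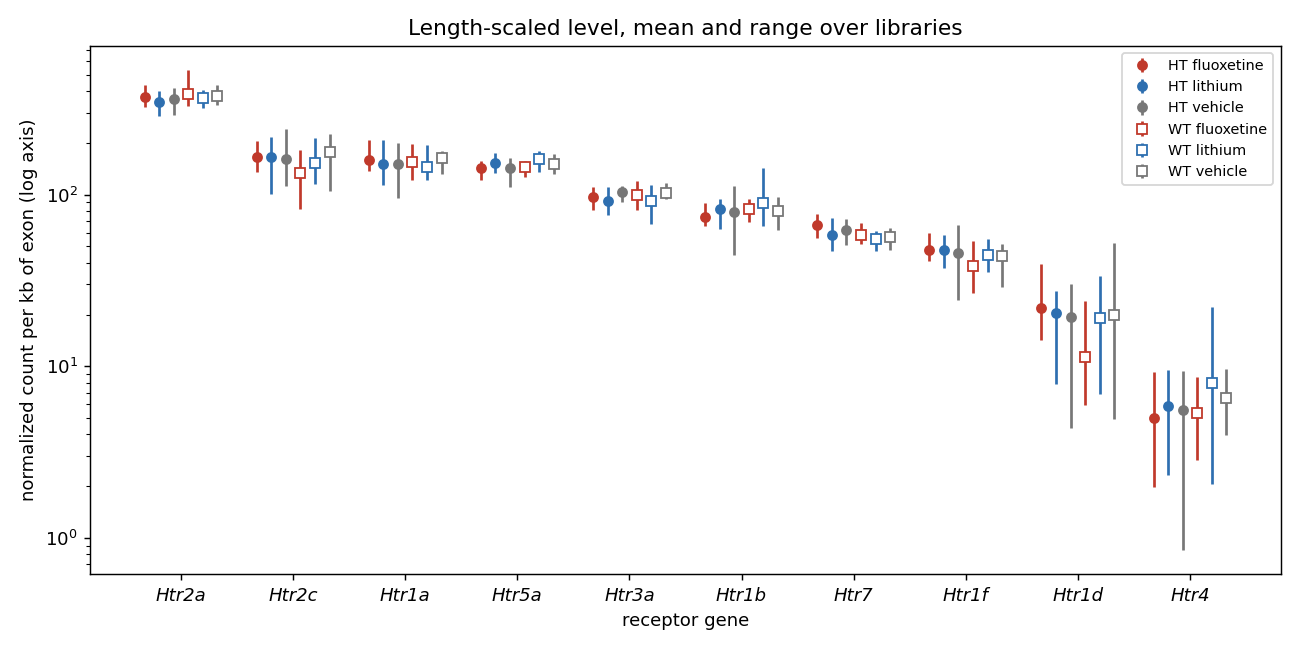
Normalized count per kilobase of exon (log axis) of the 10 receptor genes, ordered by their level in WT vehicle libraries; points are group means (n = 9 for HT fluoxetine and 10 for the others) and bars run over the libraries of a group. Htr2a stands above the other genes in all 6 groups and Htr4 has the lowest mean in each.

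Htr1d with Htr2c and Htr1a with Htr2a were among the pairs of receptors whose levels varied together most over the libraries, and Htr2c and Htr1d had the smallest p-values under fluoxetine. The promoters of these 4 genes are therefore shown side by side. They are from RefSeq (GRCm38.p6), run 5′ to 3′ on the strand of the gene from 250 bases before the start to 50 after it, and capitals mark a GC box (GGGCGG) or a CCAAT box (CCAAT) read on either strand. The windows are chr4:136423274-136423573 for the first of the Htr1d starts, chrX:146962263-146962562 for Htr2c, chr13:105443443-105443742 for Htr1a and chr14:74640624-74640923 for Htr2a, all on the plus strand.
Htr1d: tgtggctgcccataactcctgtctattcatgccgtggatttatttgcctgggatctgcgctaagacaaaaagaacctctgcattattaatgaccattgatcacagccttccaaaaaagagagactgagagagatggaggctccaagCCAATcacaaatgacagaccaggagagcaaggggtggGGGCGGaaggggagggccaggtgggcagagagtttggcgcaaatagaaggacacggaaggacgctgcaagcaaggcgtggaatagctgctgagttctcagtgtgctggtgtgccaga
Htr2c: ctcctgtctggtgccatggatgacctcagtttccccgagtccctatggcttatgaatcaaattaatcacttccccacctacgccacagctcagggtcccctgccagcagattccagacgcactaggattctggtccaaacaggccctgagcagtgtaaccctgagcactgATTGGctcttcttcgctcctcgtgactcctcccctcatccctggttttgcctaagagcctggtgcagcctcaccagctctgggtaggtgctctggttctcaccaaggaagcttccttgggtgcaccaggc
Htr1a: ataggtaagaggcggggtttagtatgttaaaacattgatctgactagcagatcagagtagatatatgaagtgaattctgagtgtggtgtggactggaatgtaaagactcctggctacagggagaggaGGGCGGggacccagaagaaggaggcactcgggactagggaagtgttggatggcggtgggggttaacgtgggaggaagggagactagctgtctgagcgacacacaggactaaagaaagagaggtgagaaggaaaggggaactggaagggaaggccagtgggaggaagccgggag
Htr2a: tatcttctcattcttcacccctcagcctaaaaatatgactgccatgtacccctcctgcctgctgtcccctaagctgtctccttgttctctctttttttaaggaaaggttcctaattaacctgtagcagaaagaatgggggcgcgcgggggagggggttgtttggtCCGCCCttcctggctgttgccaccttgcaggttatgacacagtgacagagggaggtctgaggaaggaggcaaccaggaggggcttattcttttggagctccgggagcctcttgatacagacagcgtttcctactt
In these windows Htr1d holds 1 GC box and 1 CCAAT box, Htr2c 1 CCAAT box, and Htr1a and Htr2a 1 GC box each. Of 32851 promoters of the same length, 35.7% hold a GC box and 37.4% a CCAAT box on either strand. None of the 4 holds TATAAA (13.6% of all promoters) or TGACGTCA, the cAMP response element (1.79%). Their 7, 5, 7 and 6 CpG dinucleotides, in the order shown, stand near the median of 7 over all promoters. The window at the second annotated start of Htr1d, not shown, differs: it holds 4 GC boxes, 0 CCAAT boxes and 28 CpG, and 85.8% of promoters have fewer CpG. The promoter of Htr7 has 46 CpG in the same window, and 98.4% of promoters have fewer. Promoters of 8 of the 10 members were read. That of Htr4 was not looked up, and Htr3a had no entry in the source used.

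No receptor gene passed the test for fluoxetine in either genotype. In HT-labelled mice 0 of the 10 were called at an adjusted p under 0.05, against 0% of all genes tested, and 0 had an unadjusted p under 0.05, against 857 of all genes (5.09%). In WT-labelled mice 0 of the 10 were called, against 0.19% of all genes tested (18 higher and 14 lower), and 2 had an unadjusted p under 0.05, against 12.5% of all genes. The model without trend and robust shrinkage called 0 genes in HT-labelled mice as well. The log2 fold change was above 0 for 7 of the 10 in HT-labelled mice, with a median of 0.06, against 8770 of 16839 genes and a median of 0.004 over all genes. It was below 0 for 7 of the 10 in WT-labelled mice, with a median of −0.065, against 51.4% of all genes and a median of −0.003. The members varied with each other over the libraries, so these counts are not read as a result about the family. For each of the 10 the fluoxetine and vehicle libraries overlapped in both genotypes; the groups did not overlap for 0% of all genes tested in HT-labelled mice and for 0.0238% in WT-labelled mice. Dams, litters and animals are not named in the labels, and a p-value here sets a difference against the spread between libraries alone.

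**Figure D2:**
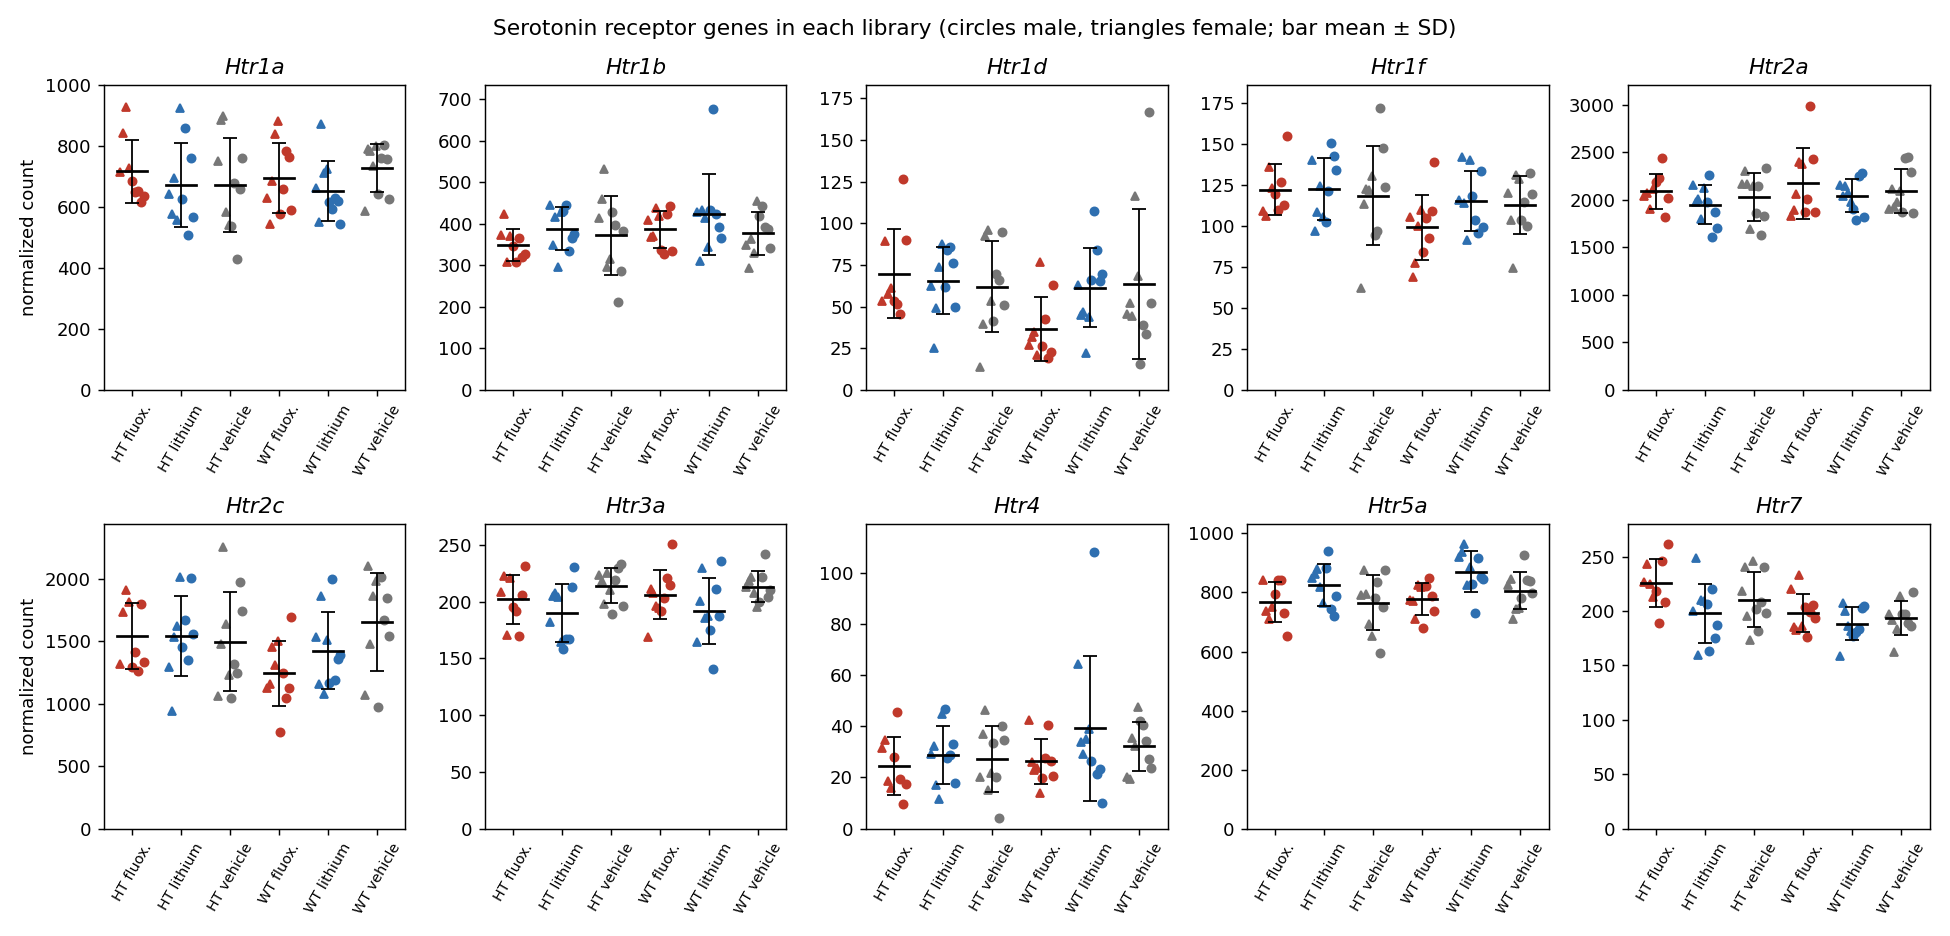
Normalized count of each receptor gene in every library, by genotype and treatment (circles male, triangles female); horizontal lines are group means and error bars SD (n = 9 for HT fluoxetine and 10 for the others). Fluoxetine and vehicle libraries overlap for every gene, and the WT fluoxetine libraries of Htr2c and Htr1d have the lowest group means, 1243 and 36.39.

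Among the Gq-coupled receptors, Htr2c (chromosome X, 146962513 to 147197277, GRCm38), whose product curbs appetite and dopamine release and whose gene hosts 8 annotated small RNA genes, had the smallest p of any member for fluoxetine against vehicle. In WT-labelled males Htr2c had 773.4, 1247, 1049, 1126 and 1693 normalized counts with fluoxetine, against 975.8, 2014, 1668, 1847 and 1542 with vehicle. In WT-labelled females Htr2c had 1125, 1158, 1451, 1311 and 1499 normalized counts with fluoxetine, against 1070, 2106, 1475, 1861 and 1983 with vehicle. All 10 fluoxetine libraries lay below the vehicle median of 1758, but the groups overlapped in both sexes. Such counts are given below for some members only, and their share over all genes was not computed. The log2 fold change was −0.40 ± 0.147 (SE; 95% interval −0.696 to −0.103), with an unadjusted p of 0.00922 and an adjusted p of 0.214 by limma. Over the 10 alternative settings other than leaving out 1 library at a time it ran from −0.40 to −0.362 and its adjusted p from 0.11 to 0.358. With 1 library left out at a time it ran from −0.485 to −0.33 and its adjusted p by limma from 0.0823 to 0.413. In these bulk samples fewer cells that make a transcript and less transcript per cell cannot be told apart.

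In HT-labelled mice the values of Htr2c with fluoxetine lay within the range of those with vehicle. It averaged 1541 ± 265.9 normalized counts with fluoxetine (SD, n = 9; lowest 1259, median 1415, highest 1909) and 1497 ± 399.6 with vehicle (SD, n = 10; lowest 1042, median 1399, highest 2251). The log2 fold change of Htr2c was 0.08 ± 0.152 (SE; adjusted p = 0.951). The test of the difference between the genotypes' fluoxetine effects gave 0.48 ± 0.212 (SE; 95% interval 0.055 to 0.906), with an unadjusted p of 0.0276 and an adjusted p of 0.74, which missed the threshold. Markers of oligodendrocytes, the cells that make myelin, moved with this difference: for 8 of 8 the fluoxetine effect in HT-labelled mice was above that in WT-labelled mice, with a median log2 difference of 0.49 and an unadjusted p under 0.05 for 7 (adjusted p over 0.05 for all 8). So did the striatal markers, 13 of 13 with a median of 0.352 and an unadjusted p under 0.05 for 0. The part of the oligodendrocyte markers in the Htr2c difference was not tested. The 10 alternative settings include the striatal level as a covariate and leaving out the libraries rich in striatal markers. Over them the Htr2c difference ran from 0.41 to 0.598 and its adjusted p by limma from 0.447 to 0.856.

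Htr2a (chromosome 14, 74640840 to 74709494) kept within a narrow interval. Its normalized counts averaged 2089 ± 183.3 in HT fluoxetine and 2026 ± 251 in HT vehicle libraries (SD, n = 9 and 10), and 2171 ± 370.8 in WT fluoxetine and 2092 ± 229.9 in WT vehicle libraries (SD, n = 10 each). In HT-labelled mice 6 of 9 fluoxetine libraries lay below the vehicle median of 2147, and in WT-labelled mice 5 of 10 below that of 2032. The log2 fold change of Htr2a was 0.05 ± 0.076 (SE; 95% interval −0.107 to 0.199) in HT-labelled mice and 0.04 ± 0.074 (95% interval −0.105 to 0.192) in WT-labelled mice.

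Among the receptors coupled to inhibitory G proteins, Htr1d (chromosome 4, 136423524 to 136444398), a receptor of axon terminals that limits transmitter release, had the largest fitted difference. In WT-labelled males Htr1d had 26.11, 42.52, 18.92, 22.97 and 62.84 normalized counts with fluoxetine, against 15.74, 38.79, 33.45, 166.7 and 51.92 with vehicle. In WT-labelled females Htr1d had 26.97, 31.57, 34.67, 20.9 and 76.45 normalized counts with fluoxetine, against 45.38, 51.98, 44.42, 116.4 and 68.15 with vehicle. A total of 8 of the 10 fluoxetine libraries lay below the vehicle median of 48.65, and the groups overlapped in both sexes. The log2 fold change of Htr1d was −0.65 ± 0.299 (SE; unadjusted p = 0.0334, adjusted p = 0.346), and it ran from −0.836 without WT vehicle male replicate 1 to −0.42 without WT vehicle male replicate 4, the library at 166.7. In HT-labelled mice Htr1d averaged 69.72 ± 26.72 normalized counts with fluoxetine and 61.78 ± 27.29 with vehicle (SD, n = 9 and 10), a log2 fold change of 0.26 ± 0.308 (SE; adjusted p = 0.937). The difference between the genotypes' effects was 0.91 ± 0.43 (SE; unadjusted p = 0.0386, adjusted p = 0.766).

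The remaining receptors of this class differed less. Htr1a (chromosome 13, 105443639 to 105448122), the autoreceptor of raphe neurons and an inhibitory receptor of cortical neurons, had 717.3 ± 104.7 normalized counts in HT fluoxetine and 672.7 ± 153.8 in HT vehicle libraries (SD, n = 9 and 10). In WT-labelled mice Htr1a had 696 ± 115.8 with fluoxetine and 728.8 ± 79.24 with vehicle (SD, n = 10 each). Its log2 fold change was 0.13 ± 0.107 in HT-labelled and −0.08 ± 0.104 in WT-labelled mice (SE; adjusted p = 0.91 and 0.804 by limma). Htr1b (chromosome 9, 81628291 to 81633828), a release-limiting receptor of axon terminals whose gene overlaps an antisense gene, averaged 349.3 ± 38.08 with fluoxetine and 372.3 ± 95.03 with vehicle in HT-labelled mice (SD, n = 9 and 10). There 8 of 9 fluoxetine libraries lay below the vehicle median of 389.8, while in WT-labelled mice 5 of 10 lay below that of 374.9. In WT-labelled mice Htr1b averaged 387.3 ± 44.76 with fluoxetine and 377.1 ± 51.54 with vehicle (SD, n = 10 each). Htr1b had a log2 fold change of −0.05 ± 0.111 in HT-labelled and 0.04 ± 0.108 in WT-labelled mice (SE; adjusted p = 0.966 and 0.899 by limma).

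Htr1f (chromosome 16, 64924729 to 65105854), the target of lasmiditan, had 99.14 ± 19.75 normalized counts in WT fluoxetine and 112.7 ± 17.84 in WT vehicle libraries (SD, n = 10 each), a log2 fold change of −0.19 ± 0.121 (SE; adjusted p = 0.526). In these WT groups 9 of 10 fluoxetine libraries lay below the vehicle median of 116.9. In HT-labelled mice Htr1f had 122.1 ± 15.67 with fluoxetine and 118.5 ± 29.99 with vehicle (SD, n = 9 and 10), a log2 fold change of 0.07 ± 0.125 (SE). Htr5a (chromosome 5, 27842149 to 27855088) was among the most evenly expressed members. It averaged 767.2 ± 67.7 in HT fluoxetine and 765.1 ± 93.31 in HT vehicle libraries (SD, n = 9 and 10), and 777.4 ± 54.58 in WT fluoxetine and 806.1 ± 63.69 in WT vehicle libraries (SD, n = 10 each). The log2 fold change of Htr5a was 0.01 ± 0.061 in HT-labelled mice (SE; 95% interval −0.114 to 0.13) and −0.05 ± 0.059 in WT-labelled mice (95% interval −0.17 to 0.067).

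The channel subunit Htr3a (chromosome 9, 48899213 to 48911099), a marker of a class of cortical interneurons, also overlaps an antisense gene. It averaged 202.1 ± 21.92 in HT fluoxetine and 214.3 ± 15.11 in HT vehicle libraries (SD, n = 9 and 10), and 206.1 ± 21.52 in WT fluoxetine and 213.4 ± 13.43 in WT vehicle libraries (SD, n = 10 each). Htr3a had a log2 fold change of −0.09 ± 0.077 in HT-labelled and −0.05 ± 0.075 in WT-labelled mice (SE; adjusted p = 0.918 and 0.804 by limma). The Gs-coupled receptor Htr7 (chromosome 19, 35958734 to 36057507) averaged 225.5 ± 21.98 in HT fluoxetine and 210.3 ± 25.44 in HT vehicle libraries (SD, n = 9 and 10), with 8 of 9 fluoxetine libraries above the vehicle median of 204.9. Its log2 fold change there was 0.10 ± 0.073 (SE; adjusted p = 0.906), and it was 0.03 ± 0.071 in WT-labelled mice. Htr4 (chromosome 18, 62324204 to 62496577), coupled to Gs as well, was low: 24.5 ± 11.22 in HT fluoxetine and 27.27 ± 13 in HT vehicle libraries (SD, n = 9 and 10), and 26.35 ± 8.847 in WT fluoxetine and 32.23 ± 9.537 in WT vehicle libraries (SD, n = 10 each). At this level the 95% interval of its log2 fold change was wide, from −0.702 to 0.586 in HT-labelled and from −0.914 to 0.336 in WT-labelled mice.

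**Figure D3:**
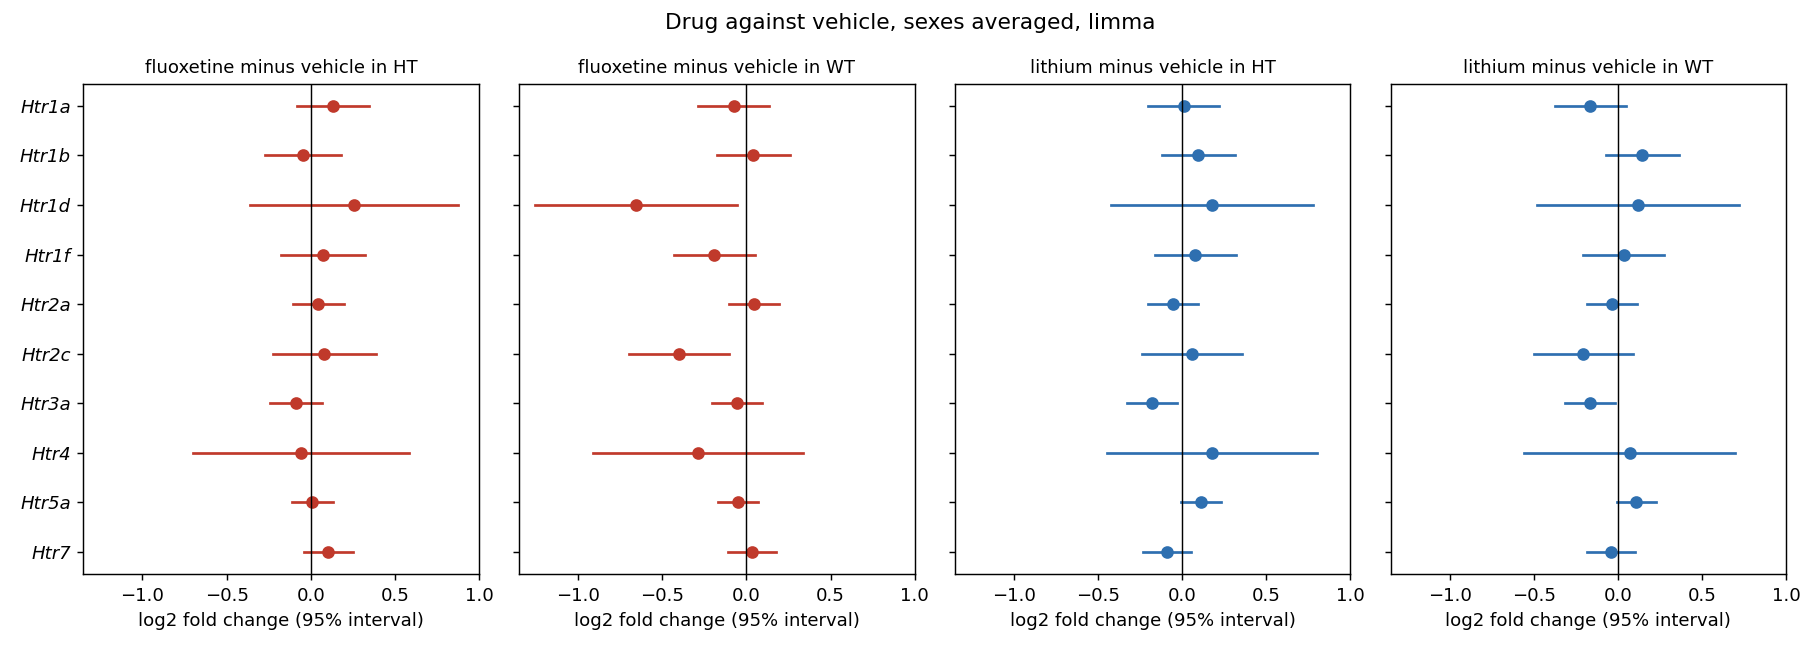
Log2 fold change of each receptor gene, drug minus vehicle, averaged over the sexes, with its 95% interval from limma, for fluoxetine (2 panels on the left) and lithium (2 panels on the right) in HT-labelled and WT-labelled mice. The intervals of Htr2c and Htr1d under fluoxetine in WT-labelled mice and of Htr3a under lithium in both genotypes do not include 0, but none of these genes passed adjustment over all genes.

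No receptor passed the test of a difference in response between the sexes. The fluoxetine effect in males minus that in females ran from −0.27 (Htr1d) to 0.17 (Htr2a) in HT-labelled mice and from −0.27 (Htr1b) to 0.31 (Htr1d) in WT-labelled mice on the log2 scale. All 10 had an adjusted p of 1 in both genotypes, and 0% of all genes tested were called in either; 399 genes (2.37%) in HT-labelled and 814 (4.83%) in WT-labelled mice had an unadjusted p under 0.05, against 0 of the 10 in either, and the model without trend and robust shrinkage also called 0. The difference in fluoxetine effect between the genotypes was called for 0 of the 10 members and for 0% of all genes tested. An unadjusted p under 0.05 was found for 2 of the 10, Htr2c and Htr1d, against 1040 of all genes (6.18%).

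Levels of tissue markers moved alongside these values, and their part in them was not tested except through the covariates described here. Averaged on the log2 scale, the olfactory bulb markers stood at 6.55 ± 1.53 in WT fluoxetine and 7.27 ± 1.49 in WT vehicle libraries (SD, n = 10 each; ranges 4.28 to 8.91 and 4.56 to 9.22). In HT-labelled mice the bulb level was 7.06 ± 1.91 with fluoxetine and 7.41 ± 2.14 with vehicle (SD, n = 9 and 10). The 13 striatal markers had a mean log2 level of 8.38 ± 0.56 in HT fluoxetine and 8.06 ± 0.72 in HT vehicle libraries (SD, n = 9 and 10), and 7.88 ± 0.36 in WT fluoxetine and 7.94 ± 0.57 in WT vehicle libraries (SD, n = 10 each). All 13 had a log2 fold change above 0 in HT-labelled and 4 of 13 in WT-labelled mice, and 0 were called. Of the oligodendrocyte markers, 8 of 8 had a log2 fold change above 0 with fluoxetine in HT-labelled mice (median 0.32, unadjusted p under 0.05 for 4) and 8 of 8 below 0 in WT-labelled mice (median −0.161, unadjusted p under 0.05 for 0), and 0 were called. Their mean log2 level was 13.17 ± 0.34 in HT fluoxetine and 12.84 ± 0.24 in HT vehicle libraries (SD, n = 9 and 10; ranges 12.68 to 13.53 and 12.39 to 13.18), and 12.68 ± 0.49 in WT fluoxetine and 12.85 ± 0.17 in WT vehicle libraries (SD, n = 10 each; ranges 11.79 to 13.45 and 12.64 to 13.14). Markers of the meninges had a log2 fold change below 0 with fluoxetine for 7 of 7 in HT-labelled mice (median −0.319, unadjusted p under 0.05 for 0). In WT-labelled mice this was so for 6 of 7 (median −0.251, unadjusted p under 0.05 for 1), and 0 were called in either genotype. Choroid plexus makes a great deal of Htr2c. The 5 of its 8 markers that passed the filter stood at 4.95 ± 1.09 in WT fluoxetine and 5.23 ± 0.50 in WT vehicle libraries (SD, n = 10 each; ranges 3.9 to 7.76 and 4.27 to 6.02). With the bulb level as a covariate the WT log2 fold change of Htr2c was −0.373, with the striatal level it was −0.39, and without the 8 libraries rich in striatal markers it was −0.367.

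Lithium gave a comparison with the same vehicle libraries, so its values are set beside those of fluoxetine and not correlated with them. No receptor gene passed the test for lithium: 0 of 10 were called in HT-labelled mice, against 0.238% of all genes tested, and 0 of 10 in WT-labelled mice, against 0.214%. In either genotype 1 of the 10, Htr3a, had an unadjusted p under 0.05, against 10.2% of all genes in HT-labelled and 11.9% in WT-labelled mice. Htr3a averaged 190.1 ± 25.24 in HT lithium and 214.3 ± 15.11 in HT vehicle libraries, and 9 of 10 lithium libraries lay below the vehicle median of 218.4. In WT-labelled mice Htr3a averaged 191.9 ± 28.89 with lithium and 213.4 ± 13.43 with vehicle (SD, n = 10 in each of the 4 groups), and 8 of 10 lithium libraries lay below the vehicle median of 211.7. With lithium, Htr3a had a log2 fold change of −0.18 ± 0.075 in HT-labelled and −0.17 ± 0.075 in WT-labelled mice (SE; unadjusted p = 0.019 and 0.0317, adjusted p = 0.361 and 0.37 by limma). Markers of the meninges had a log2 fold change below 0 with lithium for 7 of 7 in HT-labelled mice (median log2 fold change −0.173, unadjusted p under 0.05 for 0) and for 7 of 7 in WT-labelled mice (median −0.428, unadjusted p under 0.05 for 6). Immediate early genes, which neuronal activity switches on, had one above 0 for 8 of 12 in HT-labelled mice (median 0.089) and 12 of 12 in WT-labelled mice (median 0.305, unadjusted p under 0.05 for 3), and striatal markers for 13 of 13 in both (medians 0.211 and 0.279). The meningeal shift was not particular to lithium. With fluoxetine, against the same vehicle libraries, 7 of 7 were below 0 in HT-labelled mice (median −0.319) and 6 of 7 in WT-labelled mice (median −0.251). None of these markers was called, and the part of the meningeal and immediate early genes in the Htr3a values was not tested. The 10 alternative settings include the striatal level as a covariate and leaving out the libraries rich in striatal markers. Over them the lithium log2 fold change of Htr3a ran from −0.182 to −0.154 in HT-labelled and from −0.166 to −0.128 in WT-labelled mice. The difference in lithium effect between the genotypes was called for 0 of the 10 members and for 0% of all genes tested (2.29% or 386 genes at an unadjusted p under 0.05, and 0 called without trend and robust shrinkage).

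Set directly against each other, the drugs gave many called genes in WT-labelled mice, none of them a receptor. Lithium minus fluoxetine called 5.88% of all genes tested in WT-labelled and 0.0772% in HT-labelled mice, and 0 of the 10 members in either. An unadjusted p under 0.05 was found for 2 of the 10 in WT-labelled mice, against 20.9% of all genes, and for 1 of the 10 in HT-labelled mice, against 10.1%. Htr5a in WT-labelled mice came closest. Its normalized counts were 830.4, 729.8, 917.9, 852.1 and 844.3 in lithium males, against 679.7, 820.4, 849, 787.5 and 738.4 in fluoxetine males. In females Htr5a had 921, 936.2, 965.4, 825.1 and 885.7 with lithium, against 773.7, 771.4, 709.6, 824.5 and 819.6 with fluoxetine. The male groups overlapped; the female groups did not, by a margin of less than 1 normalized count, as was so for 4.6% of all genes tested. The log2 difference of Htr5a was 0.16 ± 0.059 (SE; unadjusted p = 0.00799, adjusted p = 0.0883), and 9 of 10 lithium libraries exceeded the fluoxetine median of 780.6. It passed the threshold with the first principal component as a covariate (adjusted p = 0.00644 by limma), where 2145 of 16839 genes were called. It also passed with the olfactory bulb level as a covariate (adjusted p = 0.0127), where 1654 of 16839 genes were called. The calls under these covariates are therefore not read as particular to Htr5a. Without WT lithium male replicate 2, a library rich in striatal markers, Htr5a passed as well (adjusted p = 0.0474). The log2 difference of Htr1d was 0.77 ± 0.299 in WT-labelled mice (SE; adjusted p = 0.115). That of Htr7 was −0.20 ± 0.073 in HT-labelled mice (SE; adjusted p = 0.296), where 9 of 10 lithium libraries lay below the fluoxetine median of 224.3.

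Without drug, no receptor passed the test between the labelled genotypes. HT minus WT in vehicle libraries called 0 of the 10, against 0.202% of all genes tested, and 0 had an unadjusted p under 0.05, against 10.6%. The log2 differences ran from −0.385 ± 0.311 for Htr4 to 0.114 ± 0.071 for Htr7 (SE), with adjusted p from 0.586 to 0.988.

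No other gene of serotonin reception, synthesis or transport passed the test. Of 4 further receptor genes, Htr5b and Htr6 passed the filter and were not called in any comparison. Under fluoxetine the log2 fold change of Htr6, coupled to Gs, was 0.14 ± 0.172 in HT-labelled and 0.13 ± 0.167 in WT-labelled mice (SE), and that of Htr5b was −0.05 ± 0.215 and −0.03 ± 0.209. Htr2b and Htr3b stayed below the filter, with means of 1.808 and 0.5415 normalized counts over the 59 libraries. Of 12 genes of serotonin synthesis, transport and breakdown, 10 were tested and 0 were called. The target of fluoxetine, the serotonin transporter gene Slc6a4, ran from 0 to 24.97 normalized counts. Its mean of 4.547 was below the filter, so it was not tested. Slc29a4, a low-affinity monoamine transporter, averaged 494.1 ± 104.4 in HT fluoxetine and 580.5 ± 82.54 in HT vehicle libraries (SD, n = 9 and 10), a log2 fold change of −0.25 ± 0.098 (SE; unadjusted p = 0.0143, adjusted p = 0.906). Slc29a4 had a log2 fold change of 0.13 ± 0.095 in WT-labelled mice. In WT-labelled mice the vesicular transporter gene Slc18a2 averaged 21.74 ± 23.56 with fluoxetine and 32.35 ± 19.64 with vehicle (SD, n = 10 each; log2 fold change −0.89 ± 0.479, SE; adjusted p = 0.437). Tph1, a serotonin-making hydroxylase, had a log2 fold change of −0.47 ± 0.278 with fluoxetine in HT-labelled mice (SE; adjusted p = 0.906). Maob, which breaks down monoamines, had one of 0.09 ± 0.057 in WT-labelled mice (SE; adjusted p = 0.549).

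Downstream of the receptors, 33 of 33 genes for G proteins, their effectors and receptor adaptors were tested, and none was called for fluoxetine in either genotype. Gna11, the alpha subunit that acts beside Gq, averaged 4184 ± 187.5 in WT fluoxetine and 3894 ± 190.5 in WT vehicle libraries (SD, n = 10 each; log2 fold change 0.10 ± 0.035, SE; adjusted p = 0.169). It was the only gene of this list called in any of the 11 comparisons, 1 of 33 against 5.88% of all genes tested, and was lower with lithium than with fluoxetine in WT-labelled mice, at 3840 ± 143.3 against 4184 ± 187.5 (log2 difference −0.12 ± 0.035, SE; adjusted p = 0.0249). Dlg4, the postsynaptic scaffold that binds Htr2a and Htr2c proteins, had a log2 fold change of 0.15 ± 0.056 with fluoxetine in WT-labelled mice (SE; adjusted p = 0.216) and of 0.00 ± 0.058 in HT-labelled mice. In HT-labelled mice Gnai2, an inhibitory alpha subunit, averaged 3632 ± 175.9 with fluoxetine and 3917 ± 314.4 with vehicle (SD, n = 9 and 10; log2 fold change −0.11 ± 0.046, SE; adjusted p = 0.906), and Rgs19, which speeds the turning off of such subunits, had a log2 fold change of −0.10 ± 0.061. Of 13 dopamine and adrenergic receptor genes, 10 were tested and 0 were called in any comparison. The smallest p-values under fluoxetine were those of Drd5 (log2 fold change 0.27 ± 0.173, SE) and Adra1a (−0.10 ± 0.073) in HT-labelled mice, and of Adra1d (0.18 ± 0.101) and Adra1a (−0.12 ± 0.071) in WT-labelled mice, with adjusted p from 0.461 to 0.906.

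Receptor levels varied with the cell type markers of the libraries, as did those of many genes. After group means were removed, 41 of 60 relations between a member and a marker list had an adjusted permutation p under 0.05 over the 59 libraries (Pearson). The smallest r among them was 0.309 in size; 68.3% of the members' relations and 44.8% of those of the 16829 other genes tested reached it, so the count is not read as particular to receptors. Htr5a was higher where excitatory neuron markers were higher (Pearson r = 0.647, Spearman rho = 0.646, permutation p = 3e-05 for both, adjusted p = 0.000225 and 0.0002). It was lower where inhibitory neuron markers were higher (r = −0.66, rho = −0.705, permutation p = 1e-05 for both, adjusted p = 0.00015 and 0.0001). Without the 2 libraries farthest from the median of the marker level these values of r were 0.621 and −0.652. Htr1b had the strongest relation of all, a negative one with markers of Vip and Lamp5 interneurons (r = −0.70, rho = −0.723, permutation p = 1e-05 for both, adjusted p = 0.00015 and 0.0001; r = −0.705 without the 2 farthest libraries). A p of 1e-05 is the smallest that 100000 permutations can give. Htr3a, made by interneurons of that class, had the opposite sign (r = 0.409, rho = 0.388, permutation p = 0.00309 and 0.00607, adjusted p = 0.00713 and 0.0121; r = 0.398 without the 2 farthest libraries). The relation of Htr3a largest in size was a negative one with striatal markers (r = −0.473). Htr3a was also higher where choroid plexus markers (r = 0.373) and olfactory bulb markers (r = 0.309) were higher. Htr1b and Htr5a were lower where bulb markers were higher (r = −0.611 and −0.583). All these levels share the libraries' normalization.

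**Figure D4:**
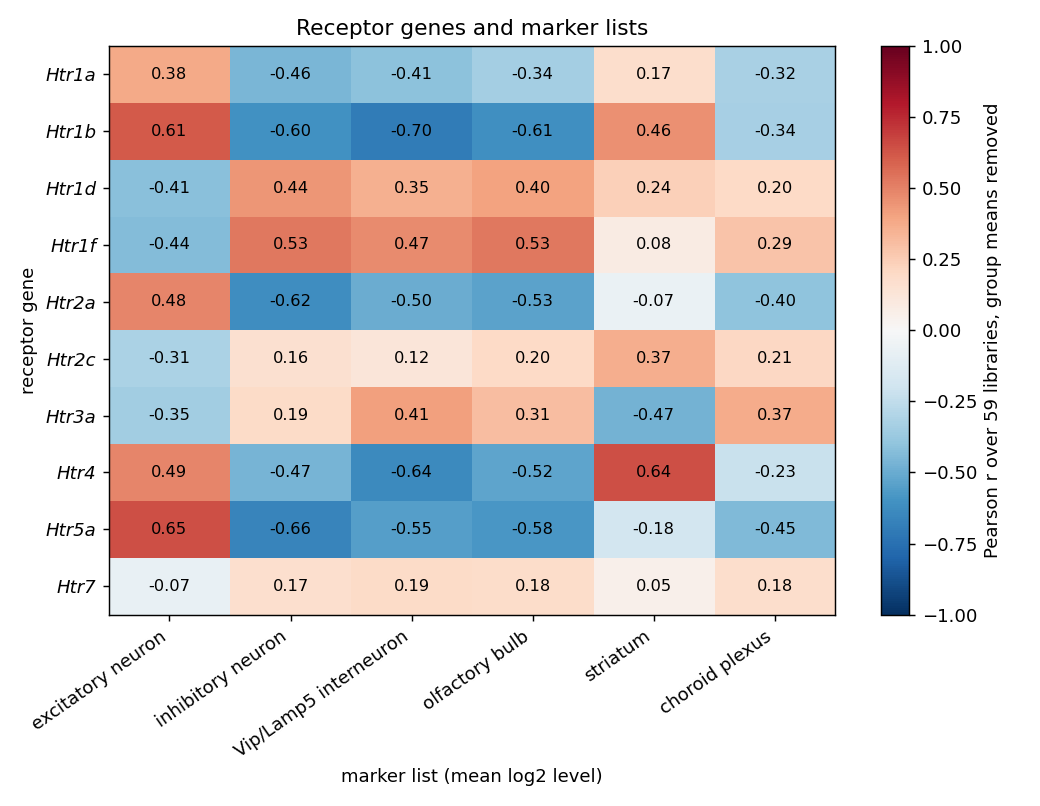
Pearson r between each receptor gene and the mean log2 level of 6 marker lists over 59 libraries, after group means were removed. Htr1a, Htr1b, Htr2a, Htr4 and Htr5a have positive values with excitatory neuron markers and negative ones with olfactory bulb markers, Htr1d, Htr1f, Htr2c and Htr3a the reverse signs (for Htr2c weakly with the bulb markers, r = 0.197), and Htr7 reaches no more than 0.192.

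Htr4 followed the striatal markers (r = 0.642, rho = 0.594, permutation p = 1e-05 for both, adjusted p = 0.00015 and 0.0001). Its r was 0.535 without the 2 libraries farthest from the median and 0.441 without the 8 libraries rich in striatal markers. The highest Htr4 value, 108.3 normalized counts in WT lithium male replicate 2, came from the library with the highest striatal level. Htr2c had a weaker relation with the same list (r = 0.367, rho = 0.229, permutation p = 0.0101 and 0.0836, adjusted p = 0.0184 and 0.119), and it rested on those libraries, since r was 0.066 without the 8. Htr2c and choroid plexus markers had r = 0.209 and rho = 0.104 (permutation p = 0.2 and 0.484, adjusted p = 0.25 and 0.528; r = 0.029 without the 2 farthest libraries). Htr7 had no relation with a marker list at an adjusted p under 0.05, its r running from −0.072 to 0.192.

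The receptors also varied with each other. Of the 45 pairs of members, a family of relations chosen after the data were seen, 12 had an adjusted permutation p under 0.05 (Pearson). The smallest r among these was 0.354 in size, a value reached by 28.9% of the members' pairs and by 19.5% of all pairs of the other genes tested. Htr1a and Htr2a were high in the same libraries (r = 0.671, rho = 0.691, permutation p = 1e-05, adjusted p = 0.00015 for both; r = 0.661 without the 2 farthest libraries). So were Htr1d and Htr2c (r = 0.652, rho = 0.614, permutation p = 1e-05, adjusted p = 0.00015 for both; r = 0.653 without the 2 farthest libraries), the pair with the lowest unadjusted p under fluoxetine in WT-labelled mice. Htr2a and Htr5a formed a further such pair (r = 0.647, rho = 0.66, permutation p = 1e-05, adjusted p = 0.00015 for both, and r = 0.637 without the 2 farthest libraries). Htr1b and Htr4 had an r of similar size (r = 0.662, rho = 0.529, permutation p = 4e-05 and 0.00024, adjusted p = 0.00045 and 0.0018). That r was 0.519 without the 2 farthest libraries and 0.546 without the 8 libraries rich in striatal markers. Htr3a and Htr4 went opposite ways (r = −0.526, rho = −0.435, permutation p = 0.00025 and 0.00164, adjusted p = 0.00161 and 0.0082; r = −0.39 without the 2 farthest libraries). Htr2a and Htr2c, of the same family, had r = 0.104 and rho = 0.131 (permutation p = 0.5 and 0.363, adjusted p = 0.682 and 0.606; r = 0.157 without the 2 farthest libraries).

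**Figure D5:**
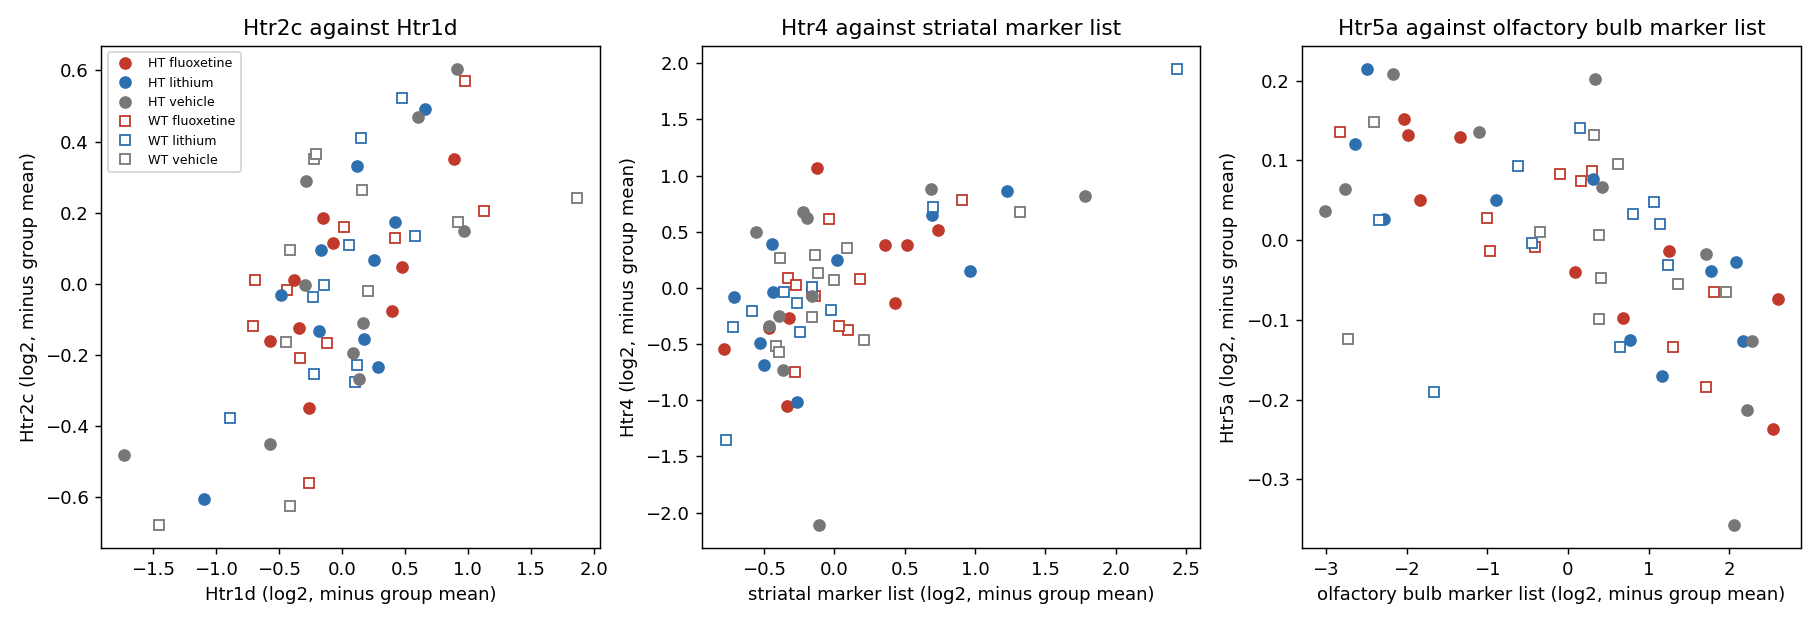
Log2 values minus their group means in the 59 libraries: Htr2c against Htr1d, Htr4 against the striatal marker list and Htr5a against the olfactory bulb marker list. Htr2c and Htr1d rise together (r = 0.652), Htr4 rises with striatal markers (r = 0.642) and Htr5a falls with bulb markers (r = −0.583).

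The genes most like each receptor over the 59 libraries, by Pearson r of log2 values with group means removed, differed between members. For Htr2c they were Strip2 (r = 0.911), Lmo3 (0.908) and Klhl13 (0.881), and Klhl13 was also among the 3 most like Htr1d (0.705). For Htr4 they were Ppp1r1b (0.791), a phosphoprotein gene of the striatal marker list, Scn4b (0.788) and Gpr83 (0.777). For Htr2a they were Megf9 (0.885), Ncam2 (0.845) and Cadm2 (0.844), for Htr1a Omg (0.862), Gpr22 (0.846) and Gda (0.814), and for Htr5a Creg2 (0.84), Gria3 (0.803) and Nrg3 (0.789). For Htr1b they were Cyld (0.847), Arpp21 (0.832) and Klf5 (0.817). The others had lower best values: Bcat1 (0.732), AW549877 (0.73) and Dhx9 (0.718) for Htr1f, and AC132253.6 (0.713), Klhl13 and Filip1 (0.697) for Htr1d. For Htr3a they were Thsd4 (0.58), Srgap3 (0.572) and Grm2 (0.554), and for Htr7 Fam78b (0.461), Egfl8 (0.45) and Grik1 (0.435).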

How the data were processed

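RNA of the prefrontal cortex was sequenced with a stranded kit for polyadenylated RNA, per the labels' protocols. The submitters' processing notes name GRCm38, DESeq2 1.19.11, R 3.6.0 and Salmon 0.11.2; their roles are not given in the sources used here. The authors deposited 1 table of a normalized signal (estimated counts divided by a factor per library). Its values are not whole numbers (3.27 to 12.6% were whole within 0.01), so no count model was fitted, and what 1 read was worth gave only an estimate of depth. Libraries were grouped by the labels' genotype, treatment and sex.

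Comparisons used limma 3.58.1 (R 4.3.3) on log2(value + 1), with means for 12 groups, trend and robust shrinkage, averaging over sexes, and Benjamini-Hochberg adjustment over 16839 genes with a mean of at least 10; calls were made at 0.05. The fit was tested on simulated data into which changes had been put. Fold changes are on that log2 scale, which understates changes of low genes. Correlations used log2 values with group means removed, with 100000 two-sided permutations within groups, adjusted over 60 or 45 relations. Exon lengths came from the GRCm38 annotation, promoters from RefSeq. Alternatives were factors from a trimmed mean of log ratios (TMM), no filter, a pseudocount of 0.5, no trend or robust shrinkage, only the compared groups, the replicate number as a block, marker or principal component covariates, and libraries left out.

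The receptors, gene lists and tests were chosen with earlier results of these data known. Named genes were the members, any called gene of a serotonin list or those of smallest p under fluoxetine, and the 3 genes most like each member.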

Additional observations from a re-analysis of the deposited data

Results flagged for a closer look

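Among 120 sets of 5 or 4 libraries (10 receptor genes in 12 groups of one genotype, treatment and sex), 8 held a library far from the others by Dixon's test, where chance gives about 6 (1 in 20). WT lithium male replicate 2, the library with the highest striatal marker level, was set apart in 3 of them: Htr4 at 108.3 normalized counts against 10.05 to 26.59 in the other libraries of the group, Htr1b at 676.5 against 367 to 432.4, and Htr2c at 1997 against 1167 to 1388. Htr4 stood at 64.52 in WT lithium female replicate 1, against 29.29 to 38.96. Htr1d stood at 76.45 in WT fluoxetine female replicate 5, against 20.9 to 34.67, and at 166.7 in WT vehicle male replicate 4, against 15.74 to 51.92. Htr1f was low in HT vehicle female replicate 1, at 62.27 against 113.5 to 130.3, and Htr2a was low in HT vehicle female replicate 4, at 1696 against 2146 to 2301.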

How the results depend on the processing

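No setting called a receptor gene for fluoxetine or lithium against vehicle. In the comparison of lithium with fluoxetine in WT-labelled mice, 1 receptor, Htr5a, was called with the first principal component or the olfactory bulb level as a covariate, and 0 or 1 with a library left out. With those covariates 2145 and 1654 of 16839 genes were called in the same comparison. Under the 10 settings other than leaving out 1 library at a time, 21 of 700 receptor log2 values turned round, none of them called. Htr2a in the difference of fluoxetine effects became −0.001 with TMM factors and −0.010 without the 8 libraries rich in striatal markers. With the first principal component, fluoxetine gave −0.020 for Htr5a in HT and −0.033 for Htr1b and −0.003 for Htr2a in WT; lithium gave −0.014 for Htr1a in HT and −0.053 for Htr4 in WT; Htr1f was −0.007 in lithium minus fluoxetine in HT. With the bulb level, fluoxetine gave −0.006 for Htr5a in HT and −0.019 for Htr1b in WT, and Htr1f was −0.005. With the striatal level, lithium gave −0.005 for Htr1a in HT and −0.133 for Htr4 in WT, and the difference of fluoxetine effects was 0.013 for Htr3a and −0.031 for Htr4. Without the 8 libraries, Htr5a was −0.011 with fluoxetine in HT, Htr1a −0.037 with lithium in HT, Htr4 −0.089 with lithium in WT, and Htr1f −0.015 in lithium minus fluoxetine in HT. The causes were not tested.

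The number of genes called moved more. In the order fluoxetine WT, lithium HT, lithium WT, lithium minus fluoxetine HT, lithium minus fluoxetine WT and HT minus WT in vehicle, 32, 40, 36, 13, 990 and 34 genes were called. With no filter these were 8, 18, 16, 6, 591 and 18. With the first principal component they were 171, 174, 223, 203, 2145 and 133, and 1 gene was called for the difference of fluoxetine effects. With the bulb level they were 99, 108, 118, 89, 1654 and 95. With only the compared groups, fluoxetine WT and lithium HT gave 0, lithium minus fluoxetine HT 5 and HT minus WT 6. Without the 8 libraries rich in striatal markers, fluoxetine WT gave 5, lithium HT 21 and lithium minus fluoxetine HT 5. Without trend and robust shrinkage, fluoxetine WT gave 17. No library passed 5 robust SD on the choroid plexus list, so leaving such libraries out gave no value. With TMM factors no median log2 value over all genes shifted by more than 0.00479.

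The labels do not say what the replicate numbers stand for. Same-numbered libraries of different groups had a median correlation of 0.048, others of −0.019. Of 59 libraries 19 correlated best with their own number, more than an even share among the 5 numbers would give. What same-numbered libraries have in common was not tested. With the replicate number as a block, fluoxetine WT called 113 genes, lithium HT 70, lithium WT 144 and lithium minus fluoxetine HT 35, and no receptor. In that fit Htr1f was −0.013 in lithium minus fluoxetine HT and Htr2a −0.001 in the difference of fluoxetine effects.

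With each library left out in turn, genes called ranged from 9 to 230 for fluoxetine WT (230 without WT fluoxetine male replicate 5), 12 to 63 for lithium HT, 10 to 56 for lithium WT, 4 to 25 for lithium minus fluoxetine HT, 631 to 1345 for lithium minus fluoxetine WT and 15 to 39 for HT minus WT. Of 1570 receptor values 74 turned round. In HT, fluoxetine ranged from −0.126 to 0.008 for Htr1b, −0.022 to 0.133 for Htr1f, −0.322 to 0.074 for Htr4 and −0.037 to 0.038 for Htr5a; in WT it ranged from −0.012 to 0.073 for Htr2a. The difference of fluoxetine effects ranged from −0.035 to 0.057 for Htr2a, −0.059 to 0.012 for Htr3a and −0.033 to 0.362 for Htr4. Lithium in HT ranged from −0.051 to 0.054 for Htr1a, −0.041 to 0.313 for Htr1d, −0.016 to 0.138 for Htr1f, −0.003 to 0.134 for Htr2c and −0.085 to 0.306 for Htr4. Lithium in WT ranged from −0.063 to 0.352 for Htr1d, −0.034 to 0.082 for Htr1f and −0.174 to 0.239 for Htr4. Lithium minus fluoxetine in HT ranged from −0.165 to 0.055 for Htr1d, −0.032 to 0.047 for Htr1f and −0.084 to 0.053 for Htr2c.

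Htr4 and Htr1d, the receptors of lowest level, had the largest SE of the 10 for fluoxetine in WT, 0.311 and 0.299, against a median of 0.0723 over all genes; how much of it is counting error at this depth was not tested.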
